A study of Mus musculus with 20 samples.

Results

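Cells that have left the cell cycle cannot rely on the histones made during DNA replication. They draw instead on replacement histone variants, which are encoded by genes outside the replication-dependent clusters. These genes give polyadenylated messenger RNA, at least in part, and poly(A) libraries as used here measure only that part. A set of 7 genes of this kind for the linker histone H1 and the core histone H2A was followed here: H1f0, H2afz, H2afv, H2afx, H2afy, H2afy2 and H2afj. They were found by an exact match of the gene symbol in the gene count table, and all 7 were present among 55421 genes. HIRA, the protein targeted in the mice, places the replacement variant of histone H3 into chromatin; it is not known as the chaperone of any H1 or H2A variant, and the comparisons below ask how far the RNA of these other variants moved when it was targeted.

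The samples were 20 poly(A) RNA libraries from mouse liver, 5 per group. All animals carried the wildtype genotype and received, by retro-orbital injection, an AAV8 virus in which the Tbg promoter, active in hepatocytes, drives the Cas9 nuclease of Staphylococcus aureus and a U6 promoter drives a guide RNA against either Hira or the Rosa26 locus, the latter being the control. Livers were taken 3 weeks or 6 months later, and the titles call all animals female, whereas the study's text describes the mice of this experiment as male in one place and as female in another; the age at injection of these animals is not given in the sources used here. The whole liver was sequenced, so cells in which the Tbg promoter is silent contribute unedited RNA, and a cut in the gene need not remove its RNA.

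Gene counts summed to between 19916430 and 24079736 per library. Counts of Hira ranged from 128 to 171 in the Rosa26 controls and from 87 to 127 in the HIRA-targeted livers at 3 weeks, a log2 fold change of -0.48 ± 0.14 (SE) that missed the threshold (adjusted p = 0.197, edgeR). At 6 months the ranges were 105 to 157 and 109 to 136, a log2 fold change of -0.10 ± 0.14. These are RNA values. For the protein, the study reported a loss of HIRA by western blot in its mice with the Hira guide, without naming the time in its text. Together the 7 hepatocyte markers summed to 80670 to 159356 CPM (counts scaled to a common library total) in every library, and none was at 0. The library of HIRA-targeted replicate 5 at 6 months went against the labelled sex, with 9 counts of Xist and 2041 of 4 Y-linked genes, where the other 19 had 6286 to 8436 and 0 to 13. In bulk liver, fewer cells of a type and less RNA per cell cannot be told apart.

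Each of these proteins changes the nucleosome in its own way. H1f0 encodes a linker histone that gathers in resting, differentiated cells. H2afz and H2afv encode forms of H2A.Z, which sits at promoters and enhancers and is put in place by the SRCAP and TIP60-p400 complexes. H2afx encodes H2A.X, whose tail serine is phosphorylated at DNA breaks, H2afj a variant close to canonical H2A, and H2afy and H2afy2 the macroH2A proteins, whose large extra domain lies outside the histone fold and is often found on silent chromatin.

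The genes lie apart in the genome (GRCm38, GENCODE M21): H1f0 at chr15:79028450-79030504 (plus strand), H2afz at chr3:137864487-137866922 (plus strand), H2afv at chr11:6427229-6444443 (minus strand), H2afx at chr9:44334694-44336077 (plus strand), H2afy at chr13:56073619-56136361 (minus strand), H2afy2 at chr10:61738665-61784147 (minus strand) and H2afj at chr6:136808244-136810074 (plus strand). H1f0, H2afx and H2afj have their main transcript in 1 exon, H2afz and H2afv in 5 and both macroH2A genes in 9.

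Sequences show how near the pairs are. The coding regions of H2afz (chromosome 3, plus strand) and H2afv (chromosome 11, minus strand) were both 384 bases long and differed at 80 of them. Of 128 codons, 73 differed, yet only 3 of these encoded another residue. The stretch of 120 coding bases below lies within a single exon of each gene, at chr3:137866021-137866140 and chr11:6429096-6429215 in GRCm38, and is shown because it makes plain how 2 nearly identical proteins come from messages that reads can tell apart; capitals mark the 24 positions that differ between them.
H2afz: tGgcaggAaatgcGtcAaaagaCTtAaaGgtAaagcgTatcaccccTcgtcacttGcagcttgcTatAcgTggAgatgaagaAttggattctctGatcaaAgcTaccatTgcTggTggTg
H2afv: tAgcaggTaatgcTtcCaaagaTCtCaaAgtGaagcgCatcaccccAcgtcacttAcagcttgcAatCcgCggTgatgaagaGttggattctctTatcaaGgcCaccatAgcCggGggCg
The longest run of bases that the main transcripts of H2afz and H2afv share was 14, and their coding identity was 79.2%. A read is thus not easily exchanged between these 2 genes, and loci outside the 7 genes were not compared. H2afx and H2afj were closer, with 89.3% coding identity and a longest shared run of 51 bases. Their coding ends, of 60 bases each, are shown because the tail is where H2A.X differs from the rest; they lie at chr9:44335131-44335190 and chr6:136808667-136808726 in GRCm38, both on the plus strand, and capitals mark each serine codon followed by a glutamine codon. Counted from the start codon, these serines stand at codons 137 and 140 of H2afx and at codon 123 of H2afj.
H2afx: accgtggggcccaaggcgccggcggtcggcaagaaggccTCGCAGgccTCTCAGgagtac
H2afj: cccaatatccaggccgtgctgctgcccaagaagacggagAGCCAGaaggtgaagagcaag
The promoters of H2afz and H2afv are shown because these genes encode almost the same protein under separate control regions. RefSeq promoters of GRCm38.p6, 300 bases each around the annotated start, were found for 6 of the 7 genes. Capitals mark CCAAT on either strand (written ATTGG where it lies on the other strand), which occurred in 37.4% of 32851 promoters of that length, and CACGTG, which occurred in 7.15% of them. The windows are chr3:137864237-137864536 (plus strand) and chr11:6444394-6444693 (minus strand).
H2afz: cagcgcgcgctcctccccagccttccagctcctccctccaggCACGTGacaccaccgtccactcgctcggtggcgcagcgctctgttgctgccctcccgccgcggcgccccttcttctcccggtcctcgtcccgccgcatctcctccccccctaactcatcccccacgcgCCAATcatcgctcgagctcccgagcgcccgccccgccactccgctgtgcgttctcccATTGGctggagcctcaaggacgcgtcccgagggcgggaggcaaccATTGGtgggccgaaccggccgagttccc
H2afv: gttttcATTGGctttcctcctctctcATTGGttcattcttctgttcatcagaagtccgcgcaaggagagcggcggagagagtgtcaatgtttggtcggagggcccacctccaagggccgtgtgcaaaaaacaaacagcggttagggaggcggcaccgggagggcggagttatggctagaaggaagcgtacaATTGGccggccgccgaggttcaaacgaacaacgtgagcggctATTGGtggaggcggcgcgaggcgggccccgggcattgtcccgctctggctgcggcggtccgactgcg
CCAAT stood 3 times in the window of H2afz and 4 times in that of H2afv, and CACGTG stood 1 time in that of H2afz. CCAAT stood 3 times in the H2afj window, 1 time in that of H2afy2 and 0 times in those of H1f0 and H2afy. The letters AAACACA and TATAAA were also searched and stood 0 times in the windows of all 6 genes. These are matches of letters and not measured sites.

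All 7 genes were detected in all 20 libraries, and all passed the filter of at least 10 counts in total. As read abundance in CPM, the means over the 20 libraries were 145 for H1f0, 83.4 for H2afy, 43.1 for H2afz, 32.7 for H2afv, 25.6 for H2afj, 11.1 for H2afx and 1.39 for H2afy2. H1f0 stood above 95.9% of the 22867 genes tested and H2afy2 above 46.3%. H2afy2 rested on only 18 to 47 counts per library, against 2261 to 4669 for H1f0, so its values are the least certain.

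**Figure D1:**
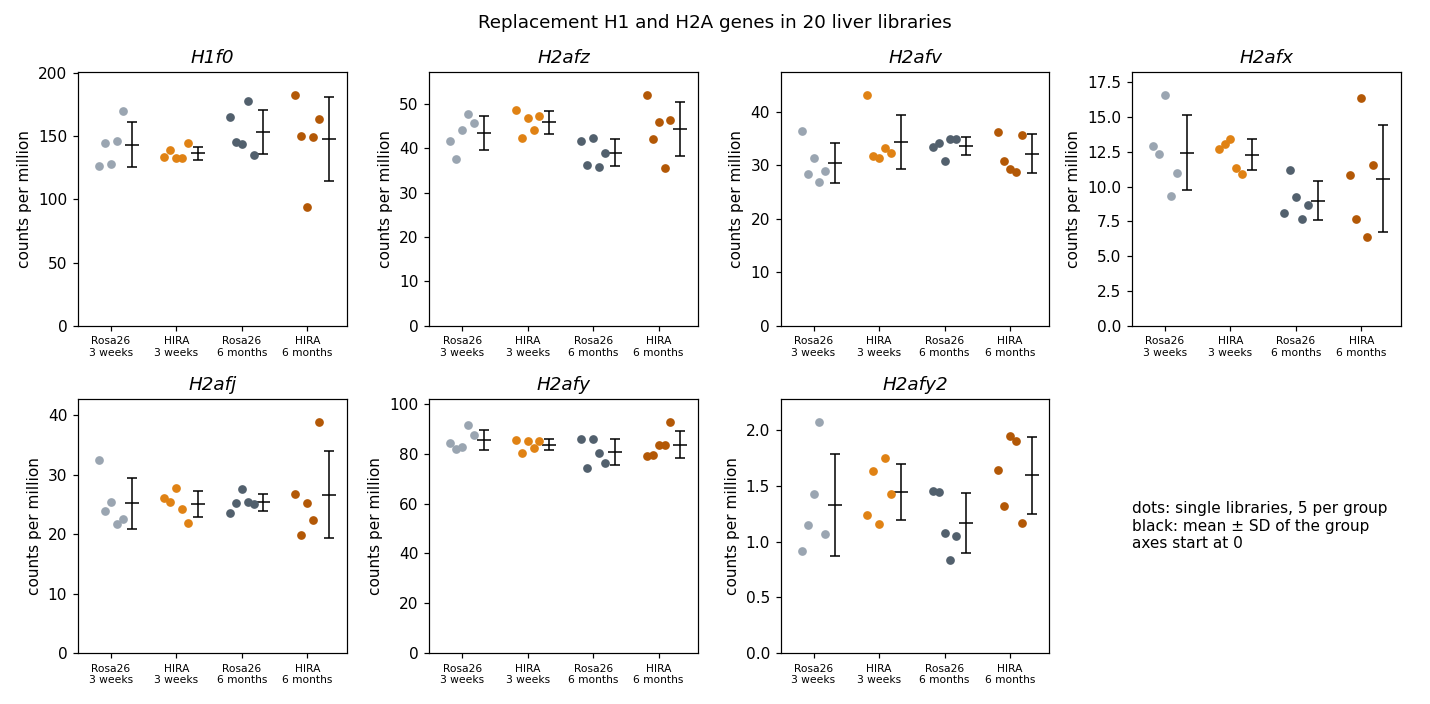
CPM of each gene (vertical axes, from 0) in the 20 libraries, grouped on the horizontal axis; dots are libraries and black marks the mean ± SD of 5. The groups overlap for every gene, and H1f0 and H2afx of HIRA-targeted replicate 3 at 6 months lie apart from the other libraries of that group, at 93.8 and 16.3.

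Levels between genes were compared per length. In CPM per kilobase of merged exons the order was H1f0 (70.7 ± 9.82, SD, n = 20), H2afz (24.3 ± 2.60), H2afv (20.0 ± 2.28), H2afj (14.0 ± 2.25), H2afy (12.3 ± 0.657), H2afx (8.00 ± 1.97) and H2afy2 (0.637 ± 0.162). H1f0 lay 1.76 to 4.30 times above H2afz in every library, and H2afx lay 5.28 to 22.3 times above H2afy2. The ranges of all other neighbours overlapped, and H2afz exceeded H2afv in 18 and H2afj exceeded H2afy in 15 of the 20 libraries. The middle of the order moved with the length used. The merged exons of H2afy span 6809 bases over 8 transcripts, but its main coding transcript has 2046, and per kilobase of main coding transcripts H2afy (40.8) and H2afz (40.4) stood level behind H1f0. In the deposited FPKM, H2afz came first with a median of 89.2, before H1f0 with 64.9 and H2afy with 48.3. H2afx and H2afy2 were the lowest pair on all 3 scales.

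**Figure D2:**
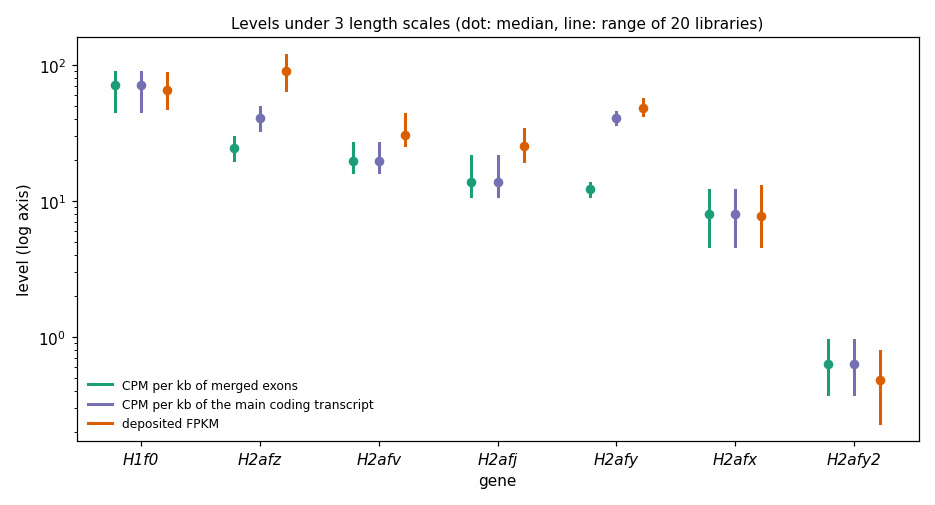
Level of each gene (vertical log axis) under 3 length scales, with the median of 20 libraries as a dot and their range as a line. H1f0 changes little between scales, H2afy is at 12.3 or 40.8 CPM per kb by merged exons or by the main coding transcript, and H2afy2 stays lowest.

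The genes also differed in how much they varied between animals. H2afy was the steadiest, ranging from 74.5 to 92.7 CPM over all libraries. Its SD within groups was 0.08 on the log2 scale, and only 0.814% of the 12903 genes with a mean of at least 1 CPM had a smaller one. The SD within groups was 0.14 for H2afz, 0.16 for H2afv, 0.22 for H1f0, 0.23 for H2afj and 0.33 for both H2afx and H2afy2. Counting error at the mean count of a library was 18.1% for H2afy2 and 6.44% for H2afx, which had 131 to 394 counts per library.

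No change of the 7 genes was detectable in HIRA-targeted livers at 3 weeks. None was called at an adjusted p under 0.05 by edgeR's quasi-likelihood test (0 of 7; 0.197% of all genes were called), and none when an absolute log2 fold change above 1 was also asked, the rule of the study (0.114% of all genes). At an unadjusted p under 0.05 there were 0 of 7 against 8.87% of all genes, and no gene had groups that did not overlap, against 2.69%. DESeq2 and limma-voom also called 0 of 7 (0.987% and 0.101% of all genes). The median log2 fold change of the 7 was -0.0082, beside -0.0059 for all genes.

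H1f0, the most abundant of the 7, was at 127, 145, 128, 146 and 170 CPM in the Rosa26 controls and at 133, 139, 132, 133 and 145 in the HIRA-targeted livers at 3 weeks. The targeted livers all lay inside the range of the controls, and the log2 fold change was -0.07 ± 0.13 (SE; 95% interval -0.34 to 0.20; adjusted p = 0.949). H2afv had the lowest p of the 7 at this time, with 36.4, 28.4, 31.5, 26.8 and 29.0 CPM in controls and 43.2, 31.7, 31.4, 33.2 and 32.3 in targeted livers. Replicate 1 was high in both groups, and the log2 fold change of H2afv was 0.18 ± 0.10 (adjusted p = 0.663). Without replicate 1 of the targeted group it was 0.08.

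At 6 months the comparison gave the same count. None of the 7 was called (0 of 7; 1.31% of all genes were called, and 0.332% with the fold threshold as well), and none had groups that did not overlap (3.15% of all genes). H2afz, 1 of 7, was under an unadjusted p of 0.05, against 15.5% of all genes. DESeq2 and limma-voom again called none (3.93% and 1.3% of all genes), and had 0 of 7 under an unadjusted p of 0.05. The median log2 fold change was 0.07 for the 7 and 0.03 for all genes.

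H2afz was at 41.7, 36.2, 42.3, 35.7 and 39.0 CPM in the Rosa26 controls at 6 months and at 52.0, 42.1, 45.9, 35.5 and 46.5 in the HIRA-targeted livers. Of the targeted livers, 3 lay above all controls, 1 within their range and 1 just below it. The log2 fold change was 0.19 ± 0.09 (95% interval 0.0029 to 0.38; adjusted p = 0.313). At 3 weeks it was 0.08 ± 0.09, with 41.7, 37.7, 44.1, 47.7 and 45.6 CPM in controls and 48.7, 42.4, 46.8, 44.1 and 47.4 in targeted livers. Averaged over both times, the log2 fold change of H2afz was 0.13 ± 0.06 (adjusted p = 0.287).

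In the deposited FPKM, a measure per length of transcript, the same gene was called in this averaged comparison. With FPKM, limma called 511 of 22867 genes there. The call of H2afz was the only one of any of the 7 under any alternative. H2afz was at 84.6 ± 8.67 FPKM (SD, n = 5) in controls and 96.5 ± 9.38 in targeted livers at 3 weeks, and at 76.7 ± 9.02 and 101 ± 14.5 at 6 months. The averaged difference on the log2(FPKM + 1) scale was 0.29 (adjusted p = 0.0456, limma). The counts and the FPKM of H2afz thus point the same way but differ in size by more than 1.5 times.

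H2afy2, the scarcer macroH2A gene, had the largest fold change of the 7 at 6 months. It was at 1.45, 1.44, 1.08, 0.834 and 1.06 CPM in controls and 1.64, 1.32, 1.95, 1.91 and 1.17 in targeted livers, a log2 fold change of 0.45 ± 0.23 (95% interval -0.04 to 0.94; adjusted p = 0.372). Of the targeted livers, 3 lay above all controls, but each value rests on 18 to 47 counts. The summed level of the 6 sinusoidal endothelial markers was 120 to 202 CPM (median 155) in these controls and 147 to 232 (median 226) in the targeted livers, and the highest H2afy2 value came from replicate 3, the library with the highest sum of stellate cell and fibroblast markers, 774 CPM. Their part in the values of H2afy2 was not tested. Without replicate 3 the log2 fold change was 0.36. Exons of H2afy2 also share 233 bases with Aifm2 on the opposite strand, a gene with 11427 counts over the 20 libraries against 608 for H2afy2, and whether the counting used strand is not given in the sources used here. The abundant macroH2A gene H2afy was at 86.1, 74.5, 86.1, 80.4 and 76.4 CPM in controls and 79.1, 79.4, 83.4, 83.7 and 92.7 in targeted livers, a log2 fold change of 0.05 ± 0.06 (95% interval -0.08 to 0.19). That interval is the narrowest of the 7.

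H1f0 at 6 months was at 165, 146, 143, 177 and 135 CPM in controls and 183, 150, 93.8, 149 and 164 in targeted livers, so the targeted group held both the highest and the lowest of the 20 libraries. Its log2 fold change was -0.05 ± 0.13. H2afj was at 23.5, 25.2, 27.5, 25.4 and 25.1 CPM in controls and 26.8, 19.9, 25.3, 22.4 and 38.8 in targeted livers, and here too the targeted group held both extremes of the 20. The highest H2afj value came from replicate 5, the library that went against the labelled sex. Without that library the same comparison still called 0 of 7.

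For the averaged comparison over both times, 0 of 7 were called (2.85% of all genes; 0.468% with the fold threshold), and H2afz alone was under an unadjusted p of 0.05 (16.6% of all genes). The difference of the HIRA effect between the times was called for 0 of 7, as for all genes (0%; 0% with the fold threshold), and 0 of 7 had an unadjusted p under 0.05 (6.62% of all genes). DESeq2 and limma-voom called 0 of 7 in both comparisons (5.56% and 2.76% of all genes in the averaged one, 0% in the other), also at an unadjusted p under 0.05. The log2 fold change of H2afv was 0.18 at 3 weeks and -0.06 at 6 months, a difference of -0.24 ± 0.14 (adjusted p = 0.808).

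The intervals say how large a change could have gone unseen. In both comparisons of HIRA with Rosa26, and in both comparisons of the times, the 95% intervals of all 7 genes lay within a log2 fold change of -1 to 1. For the difference of the HIRA effect between times this held for 6 of 7, with H2afy2 reaching 1.02. At 3 weeks, H2afy was bounded between -0.17 and 0.10 and H2afy2 between -0.37 and 0.61.

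**Figure D3:**
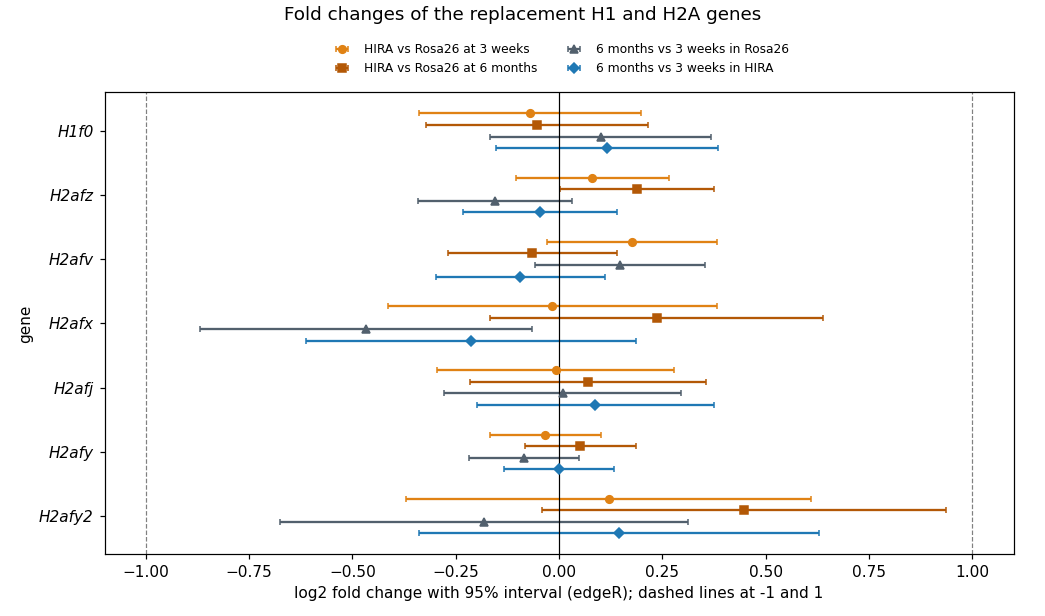
Log2 fold change (horizontal axis) of each gene with its 95% interval from edgeR, for 4 comparisons shown by colour and marker. All 28 intervals lie inside the dashed lines at -1 and 1, and those of H2afx and H2afy2 are the widest.

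The time after injection was compared within each guide, and age may differ with it, as the age of these animals is not given. In the Rosa26 controls 0 of 7 were called between 3 weeks and 6 months (0.324% of all genes; 0.162% with the fold threshold), 1 of 7 was under an unadjusted p of 0.05 (12.8%), and none had groups that did not overlap (3.5%). In the HIRA-targeted livers 0 of 7 were called (0.0656%; 0.0569% with the fold threshold), 0 of 7 were under an unadjusted p of 0.05 (8.95%), and none had groups that did not overlap (1.47%). DESeq2 and limma-voom called none in either (2.22% and 0.254% of all genes in the controls, 0.627% and 0.0306% in the targeted livers), with 1 of 7 under an unadjusted p of 0.05 in the controls and 0 of 7 in the targeted livers. The Rosa26 controls at 6 months serve in both this comparison and that of the guides at 6 months.

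The gene under that p was H2afx, the damage-signalling variant. It was at 12.9, 12.3, 16.6, 9.33 and 11.0 CPM in the controls at 3 weeks and at 8.11, 11.2, 9.29, 7.64 and 8.72 at 6 months. A control at 6 months, at 11.2, and another at 3 weeks, at 9.33, bring the groups into overlap. The highest value, 16.6, came from replicate 3, a library that also stood apart in other lists: its neutrophil markers summed to 38.1 CPM, where the other controls at 3 weeks had 2.37 to 7.24, its Kupffer cell markers to 529 (313 to 362) and its proliferation markers to 112 (76.1 to 84.4). Their part in the values of H2afx was not tested. With all libraries the log2 fold change was -0.47 ± 0.19 (95% interval -0.87 to -0.06; adjusted p = 0.3), and without that replicate it was -0.34 (adjusted p = 0.549). In the HIRA-targeted livers H2afx was at 12.7, 13.1, 13.5, 11.3 and 10.9 CPM at 3 weeks and at 10.9, 7.70, 16.3, 6.41 and 11.6 at 6 months, a log2 fold change of -0.21 ± 0.19. The later group was spread from the lowest value of the 20 to the second highest.

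H1f0 and H2afx ran in opposite directions across the livers. Over the 20 libraries their CPM gave Spearman's rho of -0.70 and Pearson's r of -0.62. For deviations from the group means rho was -0.47. The r of the CPM was -0.57 without the 2 libraries farthest from the median of H1f0. In the single groups of 5, r was -0.64 and -0.60 in the controls at 3 weeks and 6 months and -0.50 and -0.58 in the targeted livers. This is a description of 1 of 21 gene pairs, chosen after the values were seen, and all points share their normalisation. H2afx and H2afj had a rho of 0.47 over all libraries and 0.72 for deviations from the group means, and H2afv and H2afj one of 0.60 and 0.51. H2afz and H2afv, which encode nearly the same protein, had a rho of 0.10 and 0.077. The library with the lowest H1f0, HIRA-targeted replicate 3 at 6 months, also had the highest sum of the 7 stellate cell and fibroblast markers, 774 CPM against 187 to 377 in the controls. Its sum of 18 proliferation markers was 118 CPM, where the 10 controls ranged from 68.6 to 128. Their part in the values of H1f0 and H2afx was not tested.

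**Figure D4:**
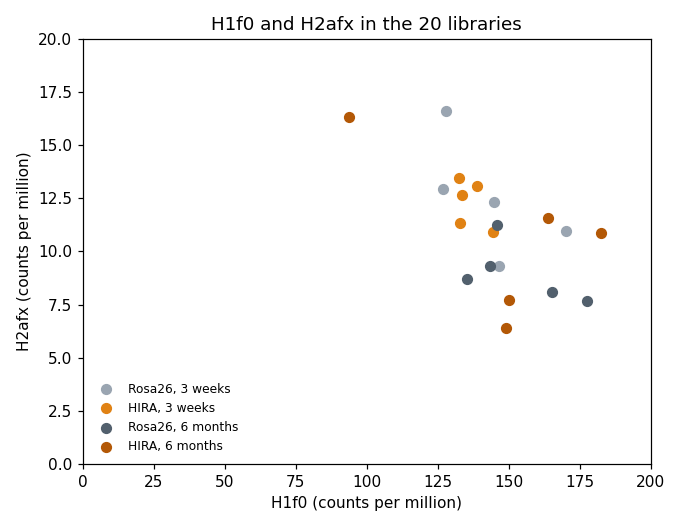
H2afx against H1f0, both in CPM from 0, in the 20 libraries coloured by group. The points fall from upper left, HIRA-targeted replicate 3 at 6 months at 93.8 and 16.3, to lower right, and r is negative in each of the 4 groups.

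Ratios within pairs of related genes do not depend on library scaling, but their size depends on the length scale. Per kilobase of merged exon, H2afv stood at 0.770 ± 0.128 of H2afz (SD, n = 5) in controls and 0.814 ± 0.0938 in targeted livers at 3 weeks, and at 0.947 ± 0.113 and 0.794 ± 0.0736 at 6 months. H2afx stood at 0.657 ± 0.131 and 0.650 ± 0.0233 of H2afj at 3 weeks, and at 0.470 ± 0.0717 and 0.536 ± 0.192 at 6 months. The ratio of H2afy2 to H2afy was 0.0482 ± 0.0148 and 0.0543 ± 0.0107 at 3 weeks, and 0.0457 ± 0.0112 and 0.0602 ± 0.0142 at 6 months. The groups overlapped in each of these comparisons of guides. Over the 20 libraries the median ratio of H2afv to H2afz was 0.817 per kilobase of merged exon, 0.492 per kilobase of main coding transcript and 0.340 in the deposited FPKM. For H2afx to H2afj the medians were 0.580, 0.580 and 0.303, and for H2afy2 to H2afy 0.0524, 0.0157 and 0.0106. In FPKM the ratio of H2afv to H2afz at 6 months was 0.366 to 0.480 in controls and 0.271 to 0.344 in targeted livers, which did not overlap, unlike the same ratio by counts. No test was run on these ratios, and the FPKM comparison was made after the values were seen.

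**Figure D5:**
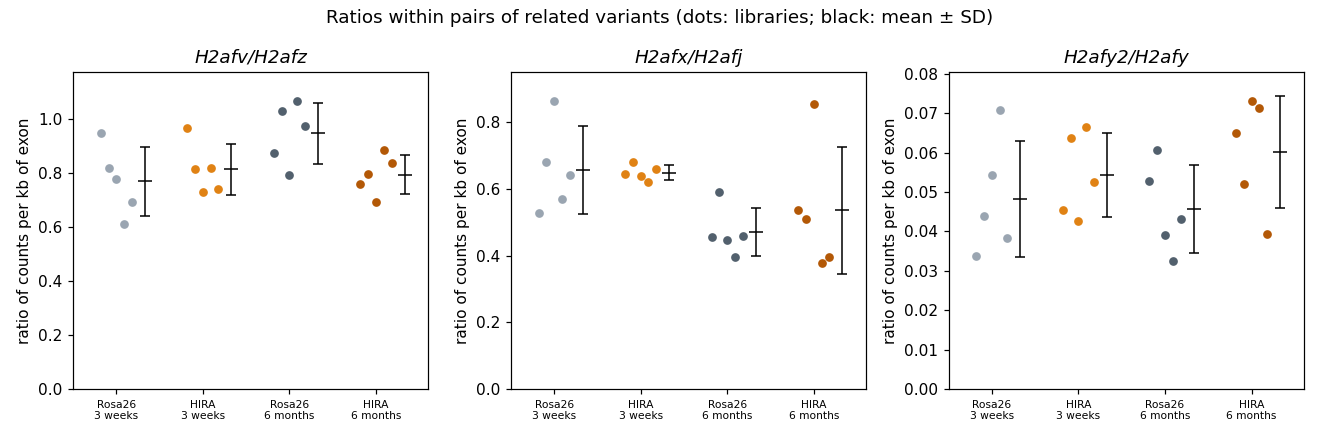
Ratio of counts per kb of merged exon within 3 pairs of related genes (vertical axes, from 0), by group; dots are libraries and black marks the mean ± SD of 5. On this scale the group means are 0.770 to 0.947 for H2afv to H2afz and 0.0457 to 0.0602 for H2afy2 to H2afy, and over the libraries both are lower per main coding transcript, with medians of 0.492 and 0.0157.

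The genes whose levels most resembled each member over the 20 libraries, among 11899 named genes with a mean of at least 1 CPM, were found by Spearman's rho of log2 CPM. H2afx was most like Ddx21 (0.89), Nsd2 (0.87) and Senp5 (0.86). H2afz was most like Mef2d (0.87), Col7a1 (0.86) and Hexim1 (0.86), and H1f0 was most like Slc25a16 (0.83), Dnajc25 (0.82) and Zfpl1 (0.81). For H2afv they were Dtnbp1 (0.87), Ptms (0.79) and Slx1b (0.77), for H2afj Tpgs1 (0.87), Mrpl54 (0.82) and D8Ertd738e (0.82), and for H2afy2 Ano1 (0.88), Eml1 (0.81) and Arrb1 (0.80). H2afy had the weakest likenesses, with Slc39a10 (0.78), Akap13 (0.71) and Cln8 (0.71). For deviations from the group means the rho of these 21 pairs ran from 0.52, for H2afz with Hexim1, to 0.84, for H2afy2 with Eml1, and for H2afz with Mef2d it was 0.71.

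Between the guides, edgeR called 2 genes of the machinery that handles these variants, both at 6 months, where 1.31% of all genes were called. Of 22 genes for the exchange of H2A.Z, 1 rose in HIRA-targeted livers at 6 months and 0 fell, with a median log2 fold change of 0.08 beside 0.03 for all genes. That gene was Mrgbp, a subunit of the TIP60 acetyltransferase complex, at 8.15, 8.06, 7.62, 8.94 and 8.99 CPM in controls and 12.7, 9.75, 11.1, 9.88 and 11.8 in targeted livers. Every targeted liver lay above every control, and 3.15% of all genes had groups that did not overlap in this comparison. The log2 fold change was 0.41 ± 0.10 (adjusted p = 0.0384, edgeR), and leaving out single libraries gave 0.34 to 0.45 with adjusted p from 0.0306 to 0.104, keeping the call in 12 of 20 cases; it was lost without any of the 5 controls at 6 months or without replicate 1, 3 or 5 of the targeted livers. With the replicate number as a block the adjusted p of Mrgbp at 6 months was 0.0578, so the call was lost there too. DESeq2 and limma-voom also called Mrgbp at 6 months, with adjusted p of 0.0054 and 0.045 (3.93% and 1.3% of all genes were called). Mrgbp was also called between the times in the controls, at -0.48 ± 0.10 (adjusted p = 0.033; 0.324% of all genes were called), where the controls at 3 weeks were at 10.5 to 12.6 CPM; this call was lost without replicate 1, 2, 3 or 4 of the controls at 3 weeks or replicate 1, 3 or 4 of those at 6 months, with adjusted p up to 0.109. DESeq2 and limma-voom also called Mrgbp between the times in the controls, with adjusted p of 0.0011 and 0.043 (2.22% and 0.254% of all genes were called). Both comparisons use the same controls at 6 months. At 3 weeks its log2 fold change between the guides was 0.02 ± 0.10.

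Of 10 chaperones for H1 and for H2A with H2B, 1 rose at 6 months and 0 fell, with a median of 0.04. It was Ptma, prothymosin alpha, an acidic nuclear protein that binds linker histone. Ptma was at 141, 132, 145, 155 and 133 CPM in controls and 179, 187, 156, 174 and 182 in targeted livers. The groups did not overlap (3.15% of all genes), though the closest values, 155 and 156, nearly met. The log2 fold change was 0.31 ± 0.07 (adjusted p = 0.0372, edgeR), and 11 of 20 fits that left out a library kept the call, with adjusted p from 0.0293 to 0.0865. It was lost without any of the 5 controls at 6 months, replicate 1 or 2 of the targeted livers, or replicate 2 or 3 of the targeted livers at 3 weeks. With only the libraries of the groups compared in the edgeR fit, the adjusted p was 0.162 for Mrgbp and 0.166 for Ptma. That fit called 0 of 20832 genes. With the replicate block the adjusted p of Ptma was 0.0497. DESeq2 and limma-voom also called Ptma at 6 months, with adjusted p of 0.0014 and 0.029 (3.93% and 1.3% of all genes were called).

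The other partners were not called by edgeR in any comparison of the guides, while DESeq2 called Baz1b at 6 months and, averaged over both times, Baz1b, Srcap, Mrgbp and Ptma (DESeq2 called 3.93% of all genes at 6 months and 5.56% in the averaged comparison), and limma-voom called Ptma in the averaged comparison (2.76%). Among 13 genes of H2A.X signalling, 0 rose and 0 fell at either time by edgeR; the lowest p at 6 months was that of Baz1b, a kinase of the H2A.X tail, at 0.24 ± 0.07 (adjusted p = 0.0964), and at 3 weeks that of Rnf8, a ubiquitin ligase recruited to breaks, at -0.28 ± 0.12 (adjusted p = 0.495). Among 6 partners of macroH2A, 0 rose and 0 fell; Parp1, the poly(ADP-ribose) polymerase, had the lowest p at 6 months, at -0.19 ± 0.08 (adjusted p = 0.257). Averaged over both times the lowest p among the exchange genes belonged to Srcap, the ATPase that deposits H2A.Z, at 0.34 ± 0.10 (adjusted p = 0.067). Kat5, the acetyltransferase of the TIP60 complex, was at 0.38 ± 0.08 between the times in HIRA-targeted livers (adjusted p = 0.0751), a comparison in which DESeq2 called it and 0.627% of all genes. Nasp, an H1 and H3 chaperone, had the lowest p among the chaperones at 3 weeks, at 0.25 ± 0.12 (adjusted p = 0.562).

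With 1 exception, Hist1h1c, the other genes of the H1 and H2A family had at most 847 counts over the 20 libraries. Messages of replication-dependent histones end in a stem-loop and not in a poly(A) tail. Of 52 other genes of the family, 27 had 0 counts in all libraries, 11 had 1 to 9, and 14 were tested, of which edgeR and limma-voom called 0 in any comparison and DESeq2 called 1, H1fx, in the guides averaged over both times, where it called 5.56% of all genes; it gave no adjusted p for 11 of the 14 there. The 7 replacement genes held 87.8% of all counts of the family. Hist1h1c, a replication-dependent H1 gene, was the most abundant of the others, with 19129 counts in all and 602 to 2202 per library. That is more reads than for 5 of the 7 replacement genes, all but H1f0 and H2afy, and close to the 18855 of H2afz. H1fx, another replacement H1 gene, had 3 to 46 counts per library. It was at 0.152 to 0.361 CPM in controls and 0.375 to 0.657 in targeted livers at 3 weeks, which did not overlap (2.69% of all genes). At 6 months it was at 0.128 to 0.559 and 0.245 to 1.91, which did. Its log2 fold change was 1.00 ± 0.51 (adjusted p = 0.595) at 3 weeks and 1.40 ± 0.48 (adjusted p = 0.151) at 6 months, and the highest value at 6 months came from replicate 3. Without that library the log2 fold change of H1fx at 6 months was 0.72, and without replicate 3 of the controls it was 1.79. Averaged over both times it was 1.20 ± 0.35 by edgeR (adjusted p = 0.0684), and 3 of 20 fits that left out a library called it, those without replicate 3 of the controls or replicate 4 or 5 of the targeted livers at 6 months (adjusted p from 0.0341 to 0.129 over the 20). DESeq2 gave 1.21 (adjusted p = 0.0266), which also passes the study's fold threshold.

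Genes of the circadian clock moved with the guides at 3 weeks and between the times in the controls, and are given because they stand beside the values above. Of 11 genes of the circadian clock, 5 rose in HIRA-targeted livers at 3 weeks and 0 fell by edgeR (6 by DESeq2 and 1 by limma-voom), and their summed level was 216 to 313 CPM in controls and 323 to 659 in targeted livers. Between the guides at 6 months 0 were called, with sums of 366 to 557 and 240 to 698. Between the times in the Rosa26 controls the sums did not overlap, and 4 of 11 rose and 0 fell by edgeR (6 and 1 by DESeq2, 5 and 0 with the replicate block, 0 by limma-voom). In this comparison H2afx and Mrgbp had negative log2 fold changes, as had H2afz (-0.15), H2afy (-0.09) and H2afy2 (-0.18). Between the times in the targeted livers edgeR called 0 of the 11 clock genes. H2afx (-0.21) and Mrgbp (-0.10 by DESeq2) were below 0 there as well. Averaged over both times, 4 of 11 rose between the guides by edgeR, 6 by DESeq2, 3 with the replicate block and 0 by limma-voom. The hour of tissue collection is not given in the sources used here, and its part in the values of the 7 genes and of Mrgbp was not tested. Of the 8 lists of cell type and proliferation markers, none had a gene called by edgeR, DESeq2 or limma-voom in the comparison of the guides at 3 weeks or 6 months. In the averaged comparison DESeq2 called 1 gene each of the hepatocyte, lymphocyte and proliferation lists (Alb, Cd79a and Ccnb2, all higher in targeted livers), and between the times in the controls it called Apoa1 of the hepatocyte list and Marco and Timd4 of the Kupffer cell list, all lower at 6 months. Neither edgeR nor limma-voom called any of these, though with the replicate block edgeR called Ccnb2. The sinusoidal endothelial sum in the controls was 192 to 254 CPM at 3 weeks against the 120 to 202 at 6 months.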

How the data were processed

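Poly(A) RNA libraries of 20 livers, 5 per group, were analysed. The raw gene counts and the FPKM were deposited by the authors; the submitters' processing notes name STAR, HTSeq and Cufflinks and build mm10, whereas the methods name HOMER for counting, and strand use is not given in the sources used here. Genes with at least 10 counts in total (22867 of 55421) were tested with edgeR 4.0.16 in R 4.3.3 (TMM, quasi-likelihood, 1 mean per group, all libraries in the fit), and p-values were adjusted by Benjamini-Hochberg over all of them. The study's own tool, DESeq2 (1.42.0 here), and limma 3.58.1, on voom values or log2(FPKM + 1), were alternatives. CPM used TMM library sizes, and log2 CPM a prior count of 2. Lengths and coordinates came from GENCODE M21 (GRCm38). Scripts were tested on simulated data. Libraries of a group differed by more than sampling noise, so none was counted as a repeat (chi-square per degree of freedom 15.1 to 121 over 40 pairs). Groups came from the sample titles; each title is taken to be 1 animal, and pooling is not stated. The members and the lists of partner and marker genes were chosen with earlier results of these data known. Named were the 7 members, Hira, called partners or else the partner with the lowest p in its list, the 3 most similar genes of each member, H1fx and the most abundant other family gene.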

Additional observations from a re-analysis of the deposited data

Results flagged for a closer look

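In the HIRA-targeted livers at 3 weeks, H2afv of replicate 1 was at 43.2 CPM (937 counts) and the next highest of the 5 was at 33.2, a gap of 0.819 of the group's range on the log2 CPM scale, which passes Dixon's limit for 5 samples. It was the 1 value so marked among 28 groups of 5, and chance alone marks about 1 in 20. Without that library the log2 fold change of H2afv at 3 weeks was 0.08, beside 0.18 with it.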

How the results depend on the processing

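The count of 0 of 7 genes called held in all 6 comparisons under every alternative that could be run, with 1 exception. When FPKM replaced counts, 1 of 7, H2afz, was called in the comparison of the guides averaged over both times. Of all genes, 511 of 22867 were called there with FPKM. The alternatives were RLE and upper-quartile scaling, no count filter and a filter of 1 CPM in 5 libraries, DESeq2, limma-voom, FPKM, the replicate block, only the libraries compared (4 comparisons), and leaving out each of the 20 libraries in turn. Counts over all genes moved more: DESeq2 called 225 at 3 weeks and 895 at 6 months where edgeR called 45 and 299, and with only the libraries compared edgeR called 149 and 0. For the averaged comparison DESeq2 called 1268 where edgeR called 651, and between the times it called 506 and 143 where edgeR called 74 and 15; the cause was not tested. Same-numbered libraries of different groups had correlations of -0.31 to 0.34 (median 0.079), and 14 of 30 were over 0.1. Differently numbered ones had -0.45 to 0.54 (median -0.036), and 25 of 120 were over 0.1. Libraries of the same number thus tended to be more alike. The titles give a replicate number but no pairing, so the main fit used no pairs and the block was an alternative. With the replicate block 0 of 7 were called in each comparison. The block called 54 and 324 genes between the guides at 3 weeks and 6 months, 37 between the times in the targeted livers and 151 in the controls. Of 20 libraries, 5 correlated best with one of their own number. Under the block H2afx between the guides at 3 weeks was 0.0092 and H1f0 for the difference between the times was -0.0081, both with the sign turned. The sign of other uncalled values near 0 also turned: H2afx between the guides at 3 weeks (0.000555 with upper-quartile factors, 0.0063 with limma-voom, 0.018 with FPKM), H2afj between the guides at 3 weeks (0.0079 with upper-quartile factors, 0.0038 with limma-voom), H2afj between the guides at 6 months (-0.013 with FPKM), H2afj between the guides averaged over both times (-0.016 with FPKM), H2afy between the times in the targeted livers (0.00084 with no count filter), H2afz between the times in the targeted livers (0.062 with FPKM) and H1f0 for the difference between the times (-0.000930 with RLE size factors, -0.0152 with upper-quartile factors, -0.000941 with DESeq2, -0.020 with limma-voom, -0.026 with FPKM). Leaving out single libraries turned the sign of more, with log2 ranges between the guides at 3 weeks H2afj -0.058 to 0.10, H2afx -0.10 to 0.11, H1f0 -0.11 to 0.00039, between the guides at 6 months H1f0 -0.15 to 0.072, H2afj -0.10 to 0.16, between the guides averaged over both times H2afy -0.010 to 0.022, H1f0 -0.11 to 0.00038, H2afj -0.056 to 0.085, between the times in the controls H2afj -0.041 to 0.12, H2afy2 -0.29 to 0.038, between the times in the targeted livers H2afv -0.14 to 0.0020, H2afy -0.040 to 0.021, H2afz -0.11 to 0.024, H2afj -0.086 to 0.18, for the difference between the times H2afj -0.10 to 0.17, H1f0 -0.074 to 0.14. Depth limits H2afy2 most, with 18 to 47 counts per library, and its intervals reached 0.94 at 6 months. The p-values measure the spread between these libraries, since pooling of animals is not stated.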
